A study of Mus musculus with 6 samples.

Results

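The 10 genes described here are Igf2, H19, Meg3, Dlk1, Peg3, Peg10, Mest, Cdkn1c, Grb10 and Plagl1, imprinted genes with known roles in growth. They were picked by symbol from the 24214 features of the deposited gene tables, and all 10 had a row. The cells were 393P, an epithelial line of mouse lung adenocarcinoma (LUAD) labelled C57BL/6, with either a vector for ZEB1 (393P_ZEB1) or the empty vector (393P_vector). Both were stable transfectants obtained by drug selection, and 3 samples of each were sequenced as total RNA on the SOLiD platform. The comparison asks which genes change with ectopic ZEB1, a zinc finger repressor that drives epithelial-to-mesenchymal transition (EMT). The labels do not say whether the 3 samples of a group came from separate transfections, so p-values measure the spread among these samples, which may be technical.

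An imprinted gene is expressed mainly from the copy inherited from 1 parent, because a DNA methylation mark laid down in the egg or sperm is kept at a control region nearby. Imprinted genes lie in clusters, often with a long noncoding RNA that silences its neighbours on the same chromosome. Many paternally expressed members promote fetal and placental growth, many maternally expressed members restrain it, and most fall to low levels in tissues after birth. Total reads per gene do not separate the parental copies, so the values below are levels and not imprinting states.

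Peg10 was the only one of the 10 genes that passed the test, and it fell 27.4-fold in 393P_ZEB1 cells. The other 9 lay at or below 0.777 CPM (counts scaled to a library of 1000000, on library sizes normalized by edgeR's TMM method) in every sample of both groups. Of the 7 genes with enough counts to be tested, 0 were higher and 1 was lower at an adjusted p below 0.05, and 6 did not pass. The same fit called 18.3% of 13892 genes higher and 19.3% lower, or 37.6% in either direction, so the share of 14.3% among the tested members was not above the background. Among genes with a mean under 1 CPM, where the 6 others lay, 35.8% were called. Among the 7 tested genes the groups did not overlap for Peg10 and Cdkn1c, against 52.8% of all genes tested (26.3% with 393P_ZEB1 higher, 26.5% with it lower). With H19, which was not tested, they did not overlap for 3 of the 10 genes, and the 52.8% does not cover untested genes. H19 had 3 counts in both 393P_vector replicate 3 and 393P_ZEB1 replicate 2, so only the scaling to library size set these samples apart. H19, Dlk1 and Plagl1 did not reach the filter of about 10 counts in each of 3 samples.

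Total counts ranged from 54442450 to 79158012 per sample, at which 3 counts, taken as the smallest number that can be shown, correspond to between 0.0361 and 0.0561 CPM. 393P_vector replicate 3 stood apart from replicates 1 and 2, with a chi-square of the counts per feature of 297 and 326 against them and of 21.3 between those 2. The named genes whose call it changed are therefore given with and without it. Many genes gained a call without this replicate, with 3700 higher and 3776 lower over all genes, against 2539 and 2679 with all samples. Zeb1 itself was at 21.2, 22 and 21.4 CPM in 393P_vector and at 54.9, 48.9 and 51.3 CPM in 393P_ZEB1 samples, with a log2 fold change of 1.26 (SE 0.10, edgeR adjusted p = 6.06e-05). The median log2 fold change of its chromosome, 18, was 0.64. Epithelial markers were lower for 7 of 8 genes (the eighth, Krt19, did not pass, and was at -0.53 with an edgeR adjusted p of 0.000901 without that replicate) and mesenchymal markers higher for 5 of 5. Of 8 lung epithelial markers 6 were below the filter, among them Nkx2-1 and Sftpc with at most 4 counts and Scgb1a1 with 0 in all 6 samples. Foxj1, of ciliated cells, fell from 150, 162 and 247 counts to 11, 5 and 16 (log2 fold change -3.89, adjusted p = 7.35e-05), and Ager had 14 to 45 counts a sample (log2 fold change -0.84, adjusted p = 0.119, or -1.04 and 0.045 without 393P_vector replicate 3). The summed markers of other cell types were low, at 1.17 to 3.53 CPM for leukocytes, 0.63 to 2.46 CPM for endothelium and 2.4 to 3.61 CPM for fibroblasts over all samples.

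**Figure D1:**
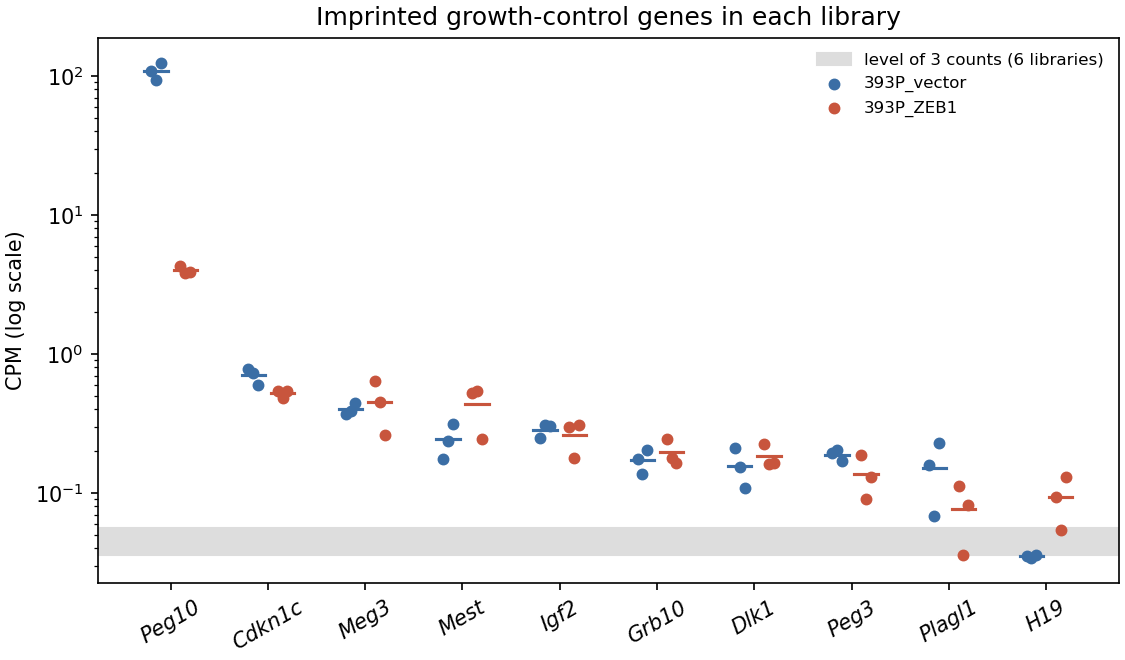
Level of each of the 10 imprinted growth-control genes in each library, in CPM on a log axis, with 393P_vector in blue, 393P_ZEB1 in red, horizontal bars at the group means and a grey band at the level of 3 counts. Peg10 stood between 94.3 and 125 CPM in 393P_vector and between 3.8 and 4.32 CPM in 393P_ZEB1 cells, and the other 9 genes lay below 1 CPM throughout.

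Peg10 (chr6:4747306-4760516, plus strand, GRCm38) is a paternally expressed gene derived from the gag and pol genes of an ancient retrotransposon, and mice without it fail to form a working placenta. The 393P_vector samples had 6189, 5550 and 10390 counts, and the 393P_ZEB1 samples 231, 211 and 238. Scaled to library size these were 109, 94.3 and 125 CPM against 4.32, 3.8 and 3.9 CPM. Every 393P_ZEB1 sample was far below every 393P_vector sample, and the 3 samples of each group lay close together. The log2 fold change was -4.77 (SE 0.16, 95% interval -5.14 to -4.41, edgeR adjusted p = 8.09e-07), and the exact permutation p was 0.1, the smallest that 3 samples against 3 can give. Without 393P_vector replicate 3 the log2 fold change was -4.67. In bulk RNA, fewer cells with Peg10 and less Peg10 RNA per cell cannot be told apart.

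Among all genes tested, the change of Peg10 ranked 180 of 13892 from the most negative, and 90 of the 10104 genes with a mean of at least 5 CPM. The median log2 fold change of the 670 genes tested on chromosome 6 was -0.36, and that of all genes was -0.02. Relative to its chromosome, Peg10 was lower by a log2 difference of -4.41.

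The Peg10 mRNA is read in overlapping frames, and ribosomes that slip at the heptamer GGGAAAC go on into the longer, pol-containing product. The heptamer occurs 1 time in the coding sequence of the Peg10 transcript of GENCODE M21 with 6667 bases and 2 exons, and it ends 15 bases before the coding end annotated for the first frame. It is shown with its surroundings, in capitals, because both products are read from the same RNA. The gene-level count therefore says nothing about how often ribosomes slip. The stretch is the plus strand of chr6:4755313-4755342.
Peg10 coding stretch: aagaattcgccgccGGGAAACtccccggcc

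Most of the reads on the 10 genes came from Peg10. It took 97.7% to 98.1% of their summed counts in 393P_vector samples and 60.2% to 65.7% in 393P_ZEB1 samples. The other 9 genes together made up 2.26 to 2.41 CPM in 393P_vector and 2.03 to 2.86 CPM in 393P_ZEB1 samples, and these ranges overlapped. Per length, on the scale of RPKM (CPM per kilobase of exon), Peg10 stood first in both groups, at 16.4 ± 2.31 (SD, n = 3) in 393P_vector and 0.601 ± 0.0413 (SD, n = 3) in 393P_ZEB1 cells. Cdkn1c came second on this scale, at 0.363 ± 0.0469 (SD, n = 3) and 0.27 ± 0.0165 (SD, n = 3), followed by Mest at 0.0878 ± 0.0247 and 0.158 ± 0.0598 and by Igf2 at 0.0673 ± 0.00768 and 0.0623 ± 0.0171. In 393P_vector cells Mest and Igf2 differed by less than the SD of Mest, and Grb10, Dlk1, Meg3, Plagl1 and Peg3 lay between 0.0286 and 0.0335 with SDs of up to 0.0153, so that their order was not resolved. H19 had the lowest mean of the 10 in 393P_vector cells, at 0.0134 ± 0.00041, on 2, 2 and 3 counts, too few for the SD to measure precision. In 393P_ZEB1 cells Plagl1 had the lowest mean, at 0.0146 ± 0.0073 on 6, 2 and 5 counts. It was not resolved from Peg3 at 0.0206 ± 0.00735.

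The genes that flank Peg10 showed a fall of that size in 1 case only. Of the 5 tested genes on each side, spanning 1490 kb, 1 was higher and 4 were lower, with a median log2 fold change of -0.52. Over all genes tested, 18.3% were higher and 19.3% were lower. Sgce, a paternally expressed gene for epsilon-sarcoglycan, starts head to head with Peg10 and shares its imprinting control region. Its level was 4.43, 4.23 and 9.43 CPM in 393P_vector and 3.08, 4.01 and 4.03 CPM in 393P_ZEB1 samples. The groups did not overlap, but 393P_vector replicate 3 held most of the difference, and the log2 fold change of -0.70 (SE 0.33, edgeR adjusted p = 0.13) was -0.22 without it (adjusted p = 0.285).

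The log2 ratio of Peg10 to Sgce within a sample, which needs no library scaling, was 4.62, 4.48 and 3.73 in 393P_vector and 0.49, -0.08 and -0.05 in 393P_ZEB1 samples. The mean difference was -4.16 (exact permutation p = 0.1, two-sided, the smallest possible), so the paired promoters' transcripts changed unequally. Casd1, a sialic acid acetyltransferase gene on the far side of Sgce, had a log2 fold change of 0.17 (SE 0.18, edgeR adjusted p = 0.511), and of 0.39 with an adjusted p of 0.009 without 393P_vector replicate 3.

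On the other side of Peg10, Pon2, a lactonase of the paraoxonase family, fell by 0.63 on the log2 scale (SE 0.18, edgeR adjusted p = 0.0259), and Pon3 was at 0.28 (SE 0.21, adjusted p = 0.336), or 0.57 with an adjusted p of 0.00185 without 393P_vector replicate 3. The lower-expressed genes of the cluster are named after their values were seen. Ppp1r9a, the actin-binding neurabin, was at 1.27, 1.5 and 1.06 CPM against 0.467, 0.27 and 0.311 CPM, with a log2 fold change of -1.86 (SE 0.29, edgeR adjusted p = 0.00172). Asb4, a subunit of a ubiquitin ligase, had a log2 fold change of -1.82 (SE 0.43, adjusted p = 0.0132). The flanking genes with the widest changes, also named after the fact, were Gng11, a G protein gamma subunit at a distance of -743 kb and a log2 fold change of -5.49 (adjusted p = 2.21e-05) and a mean of 0.586 CPM, and Pdk4, a mitochondrial kinase at 736 kb on the other side and a log2 fold change of 2.33 (adjusted p = 0.00267) and a mean of 0.429 CPM.

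**Figure D2:**
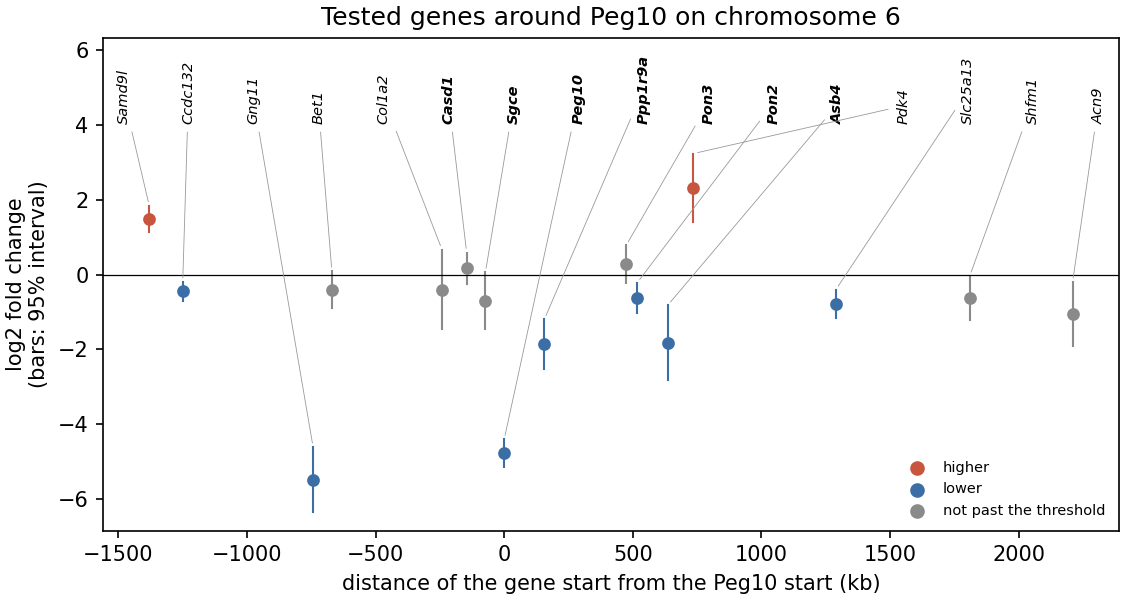
Log2 fold change, 393P_ZEB1 over 393P_vector, of the tested genes around Peg10 against the distance of each gene's start from that of Peg10 in kb, with bars for the 95% interval, red for higher, blue for lower and grey for genes not past the threshold, and imprinted genes of the cluster in bold. Peg10 at -4.77 lay below its nearest neighbours Sgce at -0.70 and Casd1 at 0.17, and Gng11 was the other gene of the window below -4.

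Igf2 (chr7:142650768-142661035, minus strand) encodes the paternally expressed fetal growth factor that signals through the IGF1 receptor. Its level was 0.247, 0.306 and 0.301 CPM in 393P_vector and 0.299, 0.18 and 0.311 CPM in 393P_ZEB1 samples, from 10 to 25 counts a sample. The groups overlapped, with a log2 fold change of -0.11 (SE 0.32, 95% interval -0.85 to 0.62, edgeR adjusted p = 0.806), an interval that holds changes of over 1.5-fold in either direction. H19 (chr7:142575532-142578146, minus strand), the maternally expressed noncoding RNA that shares enhancers with Igf2, had 2, 2 and 3 counts in 393P_vector and 5, 3 and 8 counts in 393P_ZEB1 samples. These groups did not overlap in CPM, but the 393P_vector samples were at or under 3 counts, so no fold is given. Without the filter on low counts, the unadjusted p of H19 was 0.0446 and the adjusted p was 0.145 in edgeR, where 22.3% of 22554 genes were called.

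Cdkn1c (chr7:143458339-143461050, minus strand) encodes p57, a maternally expressed inhibitor of cyclin-dependent kinases that stops cell division in the embryo. Its level was 0.777, 0.731 and 0.602 CPM in 393P_vector and 0.542, 0.486 and 0.541 CPM in 393P_ZEB1 samples. All 393P_ZEB1 samples were the lower ones (exact permutation p = 0.1, the smallest possible), but the log2 fold change of -0.42 did not pass (SE 0.23, 95% interval -0.95 to 0.11, edgeR adjusted p = 0.189). The other genes of distal chromosome 7 moved in both directions, with 1 higher and 3 lower of 7 tested, beside 37.6% of all genes called. The higher one, named after its value was seen, was Slc22a18, a transporter gene next to Cdkn1c, at 0.742, 0.595 and 0.65 CPM against 1.1, 1.46 and 1.21 CPM (log2 fold change 0.92, SE 0.22, edgeR adjusted p = 0.0134). Kcnq1ot1, the paternally expressed antisense RNA that silences Cdkn1c on the same chromosome, fell from 21.4, 18.4 and 20.1 CPM to 10.5, 8.06 and 10.1 CPM (log2 fold change -1.06, SE 0.15, edgeR adjusted p = 0.000997). Phlda2, a maternally expressed gene whose product restrains placental growth, fell from 4.38, 5.41 and 11.5 CPM to 1.61, 2.07 and 1.61 CPM (log2 fold change -2.01, adjusted p = 0.00437). For Phlda2 the high value was that of 393P_vector replicate 3, and the log2 fold change without it was -1.48 (adjusted p = 8.04e-05). Cd81, a tetraspanin gene of the same domain, fell by 1.40 on the log2 scale (SE 0.12, adjusted p = 6.46e-05).

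Dlk1 (chr12:109452823-109463336, plus strand) encodes a paternally expressed membrane protein of the Notch ligand family that holds back differentiation. It had 12, 9 and 9 counts in 393P_vector and 12, 9 and 10 counts in 393P_ZEB1 samples, and its adjusted p without the filter on low counts was 0.754. Meg3 (chr12:109540996-109571729, plus strand), the maternally expressed noncoding RNA of the same cluster, was at 0.371, 0.391 and 0.445 CPM in 393P_vector and at 0.635, 0.45 and 0.262 CPM in 393P_ZEB1 samples. The 393P_ZEB1 values lay on both sides of the 393P_vector values, with a log2 fold change of 0.14 (SE 0.35, 95% interval -0.67 to 0.96, edgeR adjusted p = 0.78). Rtl1, a paternally expressed gene of the cluster that derives from a retrotransposon of the same family as Peg10, fell from 0.742, 0.833 and 0.65 CPM to 0.112, 0.108 and 0.213 CPM (log2 fold change -2.32, SE 0.33, adjusted p = 0.00119). Rian had 2 to 8 counts a sample, Mirg 0 to 3 and Dio3, a deiodinase of thyroid hormone, 0 to 3, all close to the limit of detection. Dlk1 was below the filter, and Rtl1 had 42, 49 and 54 counts in 393P_vector and 6, 6 and 13 in 393P_ZEB1 samples.

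Peg3 (chr7:6705960-6730419, minus strand) encodes a paternally expressed zinc finger protein linked to fetal growth and maternal care. Its level was 0.194, 0.204 and 0.169 CPM in 393P_vector and 0.187, 0.09 and 0.131 CPM in 393P_ZEB1 samples. The groups overlapped by 1 sample of each, with a log2 fold change of -0.46 (SE 0.37, 95% interval -1.33 to 0.41, edgeR adjusted p = 0.365). Usp29, transcribed from the same promoter region in the opposite direction, had 4 to 8 counts a sample, and Zim1, a further zinc finger gene of the cluster, had 1 to 9. None of the 6 other genes named for this cluster could be tested, and 3 of the 6 had no row under the symbol used. A feature named Peg3as, antisense to Peg3, had a row but was not among the symbols searched.

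Mest (chr6:30733506-30748466, plus strand) encodes a paternally expressed enzyme of the alpha/beta hydrolase fold. Its level was 0.177, 0.238 and 0.313 CPM in 393P_vector and 0.523, 0.54 and 0.246 CPM in 393P_ZEB1 samples. Replicates 1 and 2 of 393P_ZEB1 were above all 393P_vector samples and replicate 3 was among them. The log2 fold change of 0.81 had the widest interval of the tested members (SE 0.39, 95% interval -0.11 to 1.72, edgeR adjusted p = 0.146), and limma with sample weights gave 0.99 with an adjusted p of 0.0424. Copg2, a coat protein gene transcribed towards Mest, was at 54.5 to 56.9 CPM in 393P_vector and 55.7 to 66.2 CPM in 393P_ZEB1 samples, with a log2 fold change of 0.14 (SE 0.11, adjusted p = 0.322).

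Grb10 (chr11:11930499-12037420, minus strand) encodes an adaptor that binds and dampens the insulin and IGF1 receptors. Its level was 0.177, 0.136 and 0.205 CPM in 393P_vector and 0.243, 0.18 and 0.164 CPM in 393P_ZEB1 samples. The groups overlapped, with a log2 fold change of 0.16 (SE 0.34, 95% interval -0.64 to 0.95, edgeR adjusted p = 0.778). Its neighbour Cobl, an actin nucleator, fell from 37.5, 38.3 and 37.8 CPM to 8.3, 7.15 and 6.88 CPM (log2 fold change -2.35, SE 0.12, adjusted p = 6.23e-06). Of the related adaptors, Grb7 fell from 32.9, 32.8 and 22 CPM to 0.0748, 0.162 and 0.18 CPM (log2 fold change -7.68, SE 0.32, adjusted p = 2.41e-06), and Grb14 did not pass (-0.25, adjusted p = 0.541).

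Plagl1 (chr10:13090788-13131695, plus strand) encodes a paternally expressed zinc finger transcription factor that regulates other imprinted genes. It had 9, 4 and 19 counts in 393P_vector and 6, 2 and 5 counts in 393P_ZEB1 samples. Its groups overlapped, and the log2 fold change without the filter on low counts was -1.02 (SE 0.58, edgeR adjusted p = 0.273). The related factors Plag1 and Plagl2, at 4.03 to 7.19 and 43 to 52.7 CPM, did not pass either, with log2 fold changes of -0.52 (adjusted p = 0.052) and -0.05 (adjusted p = 0.789). Phactr2, a regulator of phosphatase and actin in the same region, rose from 1.1, 1.29 and 1.25 CPM to 4.37, 4.86 and 5.27 CPM (log2 fold change 1.99, SE 0.17, adjusted p = 8.2e-05).

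The 9 genes other than Peg10 together reached 2.03 to 2.86 CPM, close to the summed markers of leukocytes, endothelium and fibroblasts. Kdr, an endothelial receptor, and Pdgfra, a fibroblast receptor, were lower in 393P_ZEB1 cells (log2 fold changes -2.51 and -2.01, edgeR adjusted p = 0.000309 and 0.000459), and the collagen Col3a1 was higher (3.75, adjusted p = 9.56e-05). Cd68, which held most of the leukocyte sum, had 109, 65 and 256 counts in 393P_vector and 56, 53 and 66 in 393P_ZEB1 samples (log2 fold change -0.99, adjusted p = 0.0639), while Ptprc had 7 to 31 and Cd3e 2 to 9 counts a sample. Peg10 in 393P_vector cells stood at over 94 CPM, above the summed level of each of those marker lists, a sum that depends on the genes listed. The part of such cells or of stray reads in the levels of Peg10 and of the 9 genes was not tested.

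Among 68 other imprinted genes named for their clusters, 64 had a row and 38 were tested, of which 7 were higher, 14 were lower and 17 did not pass. The share called, 55.3%, stood against 37.6% of all genes, and the median log2 fold change of the 38, -0.02, equalled that of all genes. Without 393P_vector replicate 3 the counts were 10 higher and 15 lower. Casd1, Pon3 and Ube3a (0.29, edgeR adjusted p = 0.0152) were added to the higher and Trappc9 (-0.90, adjusted p = 6.31e-06) to the lower genes. Calls over all genes also rose without it, from 2539 to 3700 higher and from 2679 to 3776 lower. The 37.6% is the share with all samples and is not the background of these counts. The list was drawn up by cluster with earlier results of these data known, so the shares are a description.

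Among the genes that passed the filter, Nnat, Sfmbt2 and Cobl had the largest decreases. Kcnq1, a potassium channel gene below the filter, had 22, 8 and 21 counts in 393P_vector and 0, 3 and 1 in 393P_ZEB1 samples, with an edgeR adjusted p of 0.00681 without the filter. Nnat, a paternally expressed gene for the small membrane proteolipid neuronatin, fell from 19.2, 17.6 and 19.6 CPM to 0.0935, 0.126 and 0.0328 CPM, the last being 2 counts (log2 fold change -7.79, SE 0.31, edgeR adjusted p = 1.94e-06). Blcap, the gene in whose intron Nnat lies, fell from 61.1 to 61.7 CPM in 393P_vector to 38 to 46.8 CPM in 393P_ZEB1 samples (log2 fold change -0.52, adjusted p = 0.00913). The mean log2 ratio of Nnat to Blcap was lower in 393P_ZEB1 samples by a difference of -7.49. Sfmbt2, a polycomb protein gene that is paternally expressed in early development, fell from 93, 78.3 and 94.1 CPM to 1.2, 1.26 and 0.835 CPM (log2 fold change -6.34, SE 0.20, adjusted p = 7.45e-07).

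Of the increases, Peg12, a paternally expressed member of the Frat family of GSK3-binding proteins, rose from 0.936, 0.816 and 0.734 CPM to 8.02, 8.57 and 8.45 CPM (log2 fold change 3.33, SE 0.17, edgeR adjusted p = 5.6e-06). Nespas, the noncoding RNA antisense to part of the Gnas locus, rose from 0.548, 0.629 and 0.674 CPM to 2.09, 2.16 and 2.7 CPM (log2 fold change 1.90, adjusted p = 0.000303), while Gnas, the G protein alpha subunit gene, was at 0.01 (adjusted p = 0.967). Peg13, a noncoding RNA inside Trappc9, rose by 1.47 on the log2 scale (adjusted p = 2.89e-05). Smaller changes past the threshold were those of Commd1 at 0.53, Inpp5f at 0.34 and H13 at -0.32. Paternally expressed genes thus stood at both ends of the list, with Peg10, Nnat and Sfmbt2 among the decreases and Peg12 and Peg13 among the increases.

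**Figure D3:**
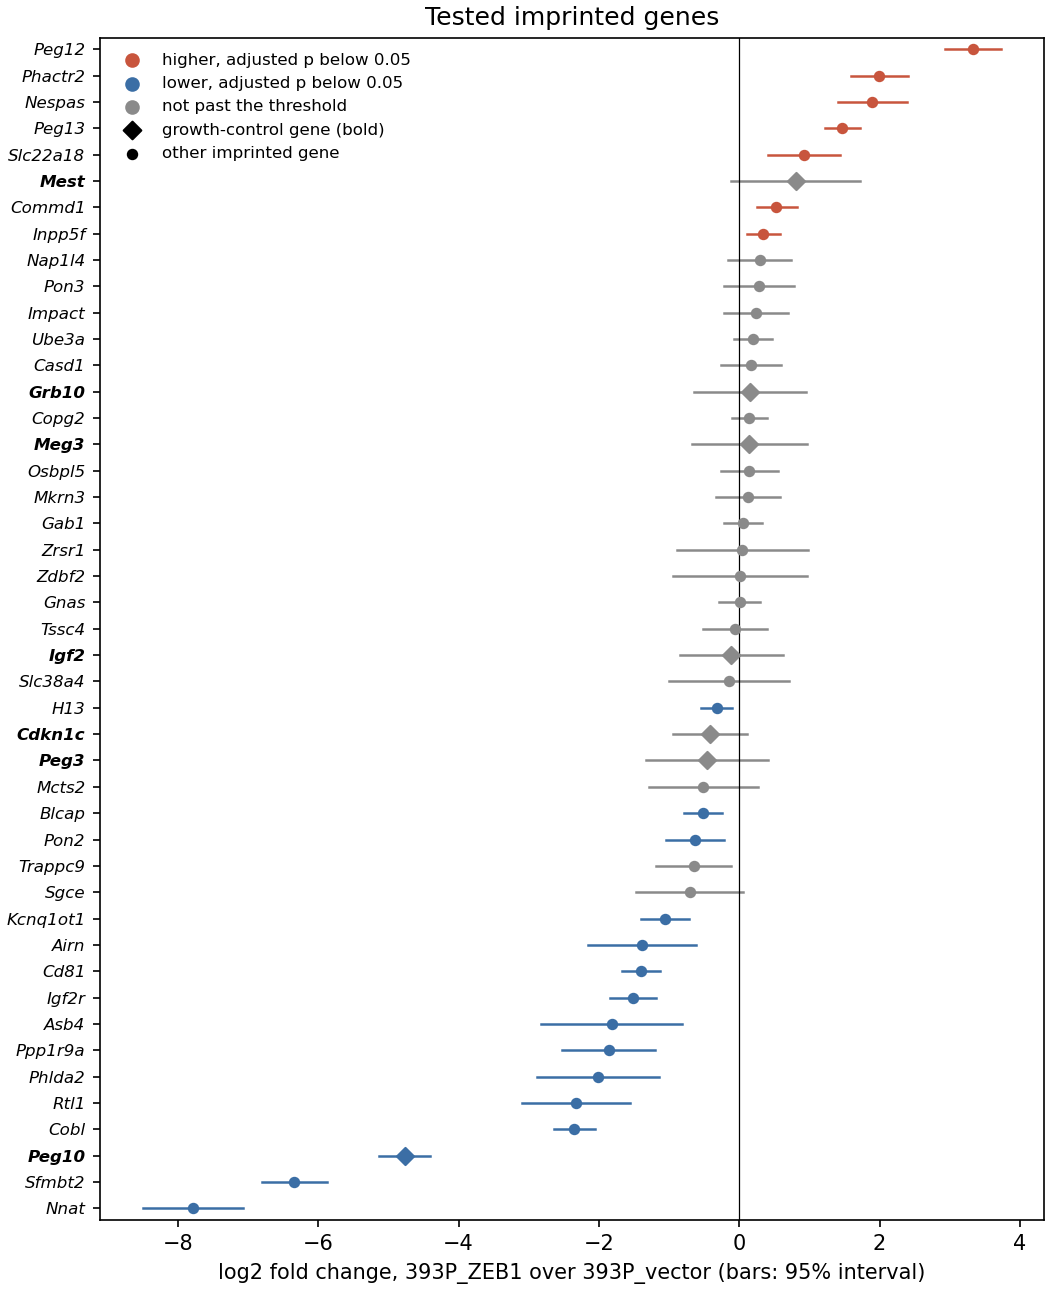
Log2 fold change, 393P_ZEB1 over 393P_vector, of the 7 growth-control genes (diamonds, bold names) and the 38 other imprinted genes (circles) that were tested, with bars for the 95% interval, red for higher, blue for lower and grey for genes not past an adjusted p of 0.05. Nnat at -7.79, Sfmbt2 at -6.34 and Peg10 at -4.77 lay furthest down, and Peg12 at 3.33 furthest up.

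Of 18 genes named for IGF signalling 14 were tested, of which 4 were higher and 4 were lower. The share called was 57.1%, against 37.6% of all genes tested. Without 393P_vector replicate 3, Igf1, a growth factor gene, and Igf2bp2 also passed, at 0.67 (edgeR adjusted p = 0.0458) and 0.40 (adjusted p = 0.00222). Igf2r, the imprinted receptor that carries IGF2 to lysosomes for breakdown, fell from 349, 323 and 249 CPM to 107, 102 and 114 CPM (log2 fold change -1.51, SE 0.14, edgeR adjusted p = 0.000141). Airn, the noncoding RNA that overlaps Igf2r in antisense, is named after its values were seen and was at 0.848, 0.493 and 0.71 CPM against 0.299, 0.306 and 0.18 CPM (log2 fold change -1.39, adjusted p = 0.0136). The signalling receptor Igf1r was at 173 to 181 CPM in 393P_vector and 159 to 193 CPM in 393P_ZEB1 samples, with a log2 fold change of -0.02 (95% interval -0.27 to 0.22).

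Igfbp7, a secreted protein that binds IGFs and insulin, rose from 4.17, 4.62 and 9.28 CPM to 41.9, 53.6 and 59.5 CPM (log2 fold change 3.09, SE 0.33, edgeR adjusted p = 0.00025). The RNA-binding proteins that were first found on Igf2 mRNA moved apart, with Igf2bp1 at 0.90 (adjusted p = 0.000871), Igf2bp3 at -2.78 (adjusted p = 7.72e-06) and Igf2bp2 at 0.32 (adjusted p = 0.0522 with all samples). Of the adaptors of the insulin and IGF1 receptors, Irs2 was lower (-1.16, adjusted p = 0.000163) and Irs1, named after its value was seen, was higher (0.66, adjusted p = 0.00137). Of the 6 other inhibitors of cyclin-dependent kinases set beside Cdkn1c, Cdkn2a was higher (0.87, adjusted p = 0.00136), Cdkn1b was lower (-1.12, adjusted p = 0.000712) and 4 did not pass. Of these 4, Cdkn2b moved from 0.07 to 0.60 (adjusted p = 0.0094) and Cdkn2d from -0.31 to -0.38 (adjusted p = 0.0276) without 393P_vector replicate 3. With all samples the share of these inhibitors called was 33.3%, against 37.6% of all genes tested.

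**Figure D4:**
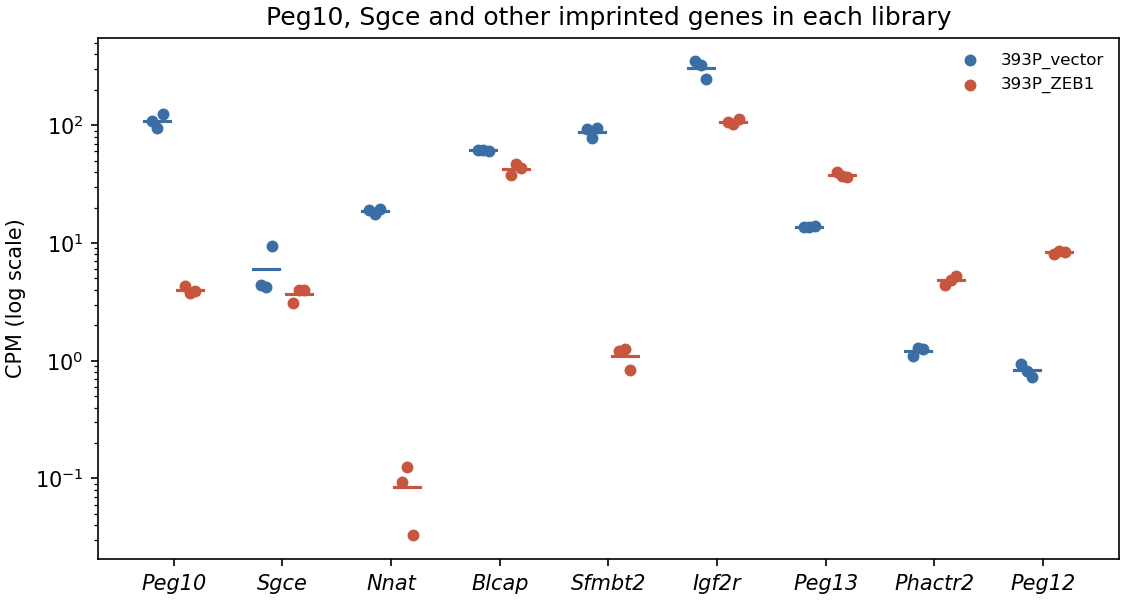
Level of Peg10, of its neighbour Sgce and of other imprinted genes in each library, in CPM on a log axis, with 393P_vector in blue, 393P_ZEB1 in red and horizontal bars at the group means. Nnat and Sfmbt2 were far lower in all 3 393P_ZEB1 samples while Blcap, which contains Nnat, moved from 61.3 to 42.8 CPM on average, and Peg13, Phactr2 and Peg12 were higher.

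Factors that write or keep DNA methylation at imprinted regions were tested for 9 of 12 genes, with 1 higher and 2 lower. This share of 33.3% stood beside 37.6% of all genes tested. Dnmt3a, a methyltransferase that lays down new methylation, rose from 44, 44.4 and 27.3 CPM to 80, 70 and 82.5 CPM (log2 fold change 1.01, SE 0.20, edgeR adjusted p = 0.00547). Its relative Dnmt3b fell from 4.13, 3.77 and 3.67 CPM to 0.692, 1.08 and 1.11 CPM (log2 fold change -2.0, SE 0.22, adjusted p = 0.00034). Uhrf1, which brings the maintenance enzyme to replicated DNA, fell by 0.81 on the log2 scale (SE 0.13, adjusted p = 0.00256). Dnmt1, the maintenance enzyme, was at -0.33 (adjusted p = 0.195) with all samples and at -0.52 (adjusted p = 0.000581) without 393P_vector replicate 3. Zfp57 and Trim28, which protect imprints in the embryo, did not pass (-0.18 and -0.36, adjusted p = 0.374 and 0.152).

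Several of the genes carry microRNAs within their transcripts. The hairpins of 27 microRNAs at the loci of these genes had a row, none passed the filter, and no hairpin had more than 2 counts in a sample. Mir675, in an exon of H19, and Mir335, within Mest, had 0 counts in all 6 samples, and Mir483, within Igf2, had 1 count in 1 sample. Total RNA counts on short hairpins do not measure mature microRNAs. The mature sequences of RefSeq are shown with the seed, bases 2 to 8, in capitals because the 3 seeds differ. Whether these microRNAs were made in the cells was not tested.
mmu-miR-675-5p: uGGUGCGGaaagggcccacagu
mmu-miR-335-5p: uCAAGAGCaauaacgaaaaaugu
mmu-miR-483-3p: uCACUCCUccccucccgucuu

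ZEB1 is known to bind the E-box CAGGTG, read as CACCTG on the other strand. RefSeq promoters of GRCm38, each from 250 bases before to 50 bases after a gene start, were searched for it on both strands. It was found for 22.6% of 27025 genes, for 1 of the 7 growth-control genes with a promoter entry, Mest, and for 25.0% of 52 other imprinted genes. H19, Peg10 and Cdkn1c had no entry. Cobl, which fell, had 3 matches in a promoter, Igf2r, which fell, had 1, and Nnat, which fell furthest, had none of these letters in its window. Among the other tested imprinted genes, Pon2, which fell, also had 1. Gnas, Osbpl5, Mkrn3 and Slc38a4 had matches too but did not pass, with log2 fold changes of 0.01, 0.14, 0.12 and -0.14. A match describes the letters and is neither a bound site nor a cause. The stretches are shown 5′ to 3′ on the strand of the gene, with the E-box in capitals, for Mest at chr6:30733388-30733447 (plus), Igf2r at chr17:12769739-12769798 (minus) and Cobl at chr11:12465020-12465163 (minus), and the whole window without a match for Nnat at chr2:157559828-157560127 (plus).
Mest: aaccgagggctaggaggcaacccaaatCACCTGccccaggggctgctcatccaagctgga
Igf2r: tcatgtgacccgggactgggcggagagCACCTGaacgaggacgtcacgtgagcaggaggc
Cobl: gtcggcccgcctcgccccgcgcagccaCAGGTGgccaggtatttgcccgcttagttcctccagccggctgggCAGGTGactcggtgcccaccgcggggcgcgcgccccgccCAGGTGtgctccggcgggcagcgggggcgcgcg
Nnat: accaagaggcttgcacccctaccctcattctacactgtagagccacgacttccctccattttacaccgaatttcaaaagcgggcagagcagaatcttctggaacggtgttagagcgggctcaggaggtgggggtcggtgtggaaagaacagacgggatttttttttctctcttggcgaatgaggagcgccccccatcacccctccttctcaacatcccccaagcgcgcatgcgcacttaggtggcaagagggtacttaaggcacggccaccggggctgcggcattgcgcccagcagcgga

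Over the 6 samples, the genes whose log2 CPM was most like that of Peg10 were Uty and Tnfrsf21, both at Pearson r = 0.9999, and Ctsw at r = 0.9996. Such values mostly restate the difference between the groups, since 215 of 10103 genes reached an r of 0.99 and all points share the same libraries. Uty, a histone demethylase gene of the Y chromosome, was at 20.9 ± 4.62 CPM (SD, n = 3) in 393P_vector and 0.1 ± 0.0112 CPM (SD, n = 3) in 393P_ZEB1 cells. Ctsw, a cathepsin gene, was at 45.9 ± 4.15 and 1.31 ± 0.115 CPM, and Tnfrsf21, a death receptor gene, at 204 ± 5.58 and 115 ± 1.95 CPM. The near absence of Uty and the higher median of chromosome 18 went with the same samples as the fall of Peg10, and an effect of ZEB1 and other differences between the transfected lines cannot be told apart.

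The strand used in counting is not given in the sources used here, so reads of overlapping genes may be shared. This applies to Igf2 with the antisense Igf2as, to Peg3 with Peg3as, to Kcnq1ot1 with Kcnq1 and to Igf2r with Airn. It also applies to Nespas with Gnas, Nnat with Blcap, Commd1 with Zrsr1, Cd81 with R74862 and Ube3a with A230073K19Rik. Rtl1 overlapped microRNA hairpins antisense to it and, over 1315 bases, the antisense feature 6430411K18Rik. On the same strand, Peg13 overlapped Trappc9, H13 overlapped Mcts2 and Sfmbt2 overlapped microRNA hairpins within it. Peg10 overlapped no other feature of the tables.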

How the data were processed

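The 6 samples of total RNA were grouped by their titles into 393P_vector and 393P_ZEB1 (n = 3 each). The authors deposited, for each of 24214 RefSeq features on GRCm38, the raw count of reads and an RPKM, the count scaled by exon length and total reads. The total implied by the deposited RPKM was 99.1% to 99.32% of the summed counts, and RPKM was not used further. The aligner and counting program are not given in the sources used here. Total counts are 54442450 to 79158012 per sample, and the 3-count limit covers counting error only, while the 95% intervals rest on the spread between samples.

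Counts were tested in R 4.3.3 with edgeR 4.0.16 (filterByExpr with a minimum count of 10, TMM, robust quasi-likelihood fit, 1 coefficient for the group), since the study states no test for them. P-values were adjusted over the 13892 genes tested (Benjamini-Hochberg), and calls were made below 0.05. CPM used TMM library sizes and, divided by exon length in kb, gave the values on the RPKM scale. Exact permutation tests were two-sided. In 3 simulated sets with 1 dispersion for all genes, 200 of 13892 genes were changed by a log2 value of 1.5. All changed genes were drawn from those with a mean above 1 CPM, and edgeR recovered 100% at a false share of 4.9%. The tested members other than Peg10 had means under 1 CPM, so this recovery does not apply to them. Alternatives were DESeq2 1.42.0 and its size factors, limma 3.58.1 with voom and sample weights, other filters, a replicate block, leaving out each sample, an adjusted p below 0.01 and testing against a fold of 1.5. Python 3.11.15 and SciPy 1.17.1 served for the rest.

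The 10 genes and all lists were chosen with earlier results of these data known. Named were the 10 genes, Zeb1, called imprinted genes with a mean of at least 1 CPM, fixed partners in the members' clusters, up to 4 called genes of each other list, and the 3 genes most like Peg10 among those with a mean of at least 5 CPM. Other genes, named for their place or role, were chosen after their values were seen.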

Additional observations from a re-analysis of the deposited data

How the results depend on the processing

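Peg10 was lower in all 14 alternatives run for it, with log2 fold changes from -4.87 to -4.67 and adjusted p-values of at most 5.81e-05. The count of growth-control genes higher became 1 (Mest) with limma and sample weights and stayed 0 elsewhere. Leaving out 1 sample reversed the sign of 3 uncalled values, those of Igf2 (-0.25 to 0.10, reversed without 393P_ZEB1 replicate 2), Meg3 (-0.18 to 0.43) and Grb10 (-0.02 to 0.31, both reversed without 393P_ZEB1 replicate 1). Over all genes, 2539 higher and 2679 lower became 3971 and 4100 with limma, 1081 and 1118 against a fold of 1.5, and 1584 and 1545 at a threshold of 0.01. Leaving out a sample gave 1861 to 3700 higher and 1784 to 3776 lower, with the 1784 reached without 393P_ZEB1 replicate 3. Other imprinted genes higher numbered 4 both against a fold of 1.5 and at a threshold of 0.01, and lower 10 to 16. Deviations of samples with equal replicate numbers correlated at r of 0.195, -0.126 and -0.028, so the numbers were not taken as pairs. With the replicate block 2180 genes were higher and 2256 lower, and Peg10 was at -4.77 (edgeR adjusted p = 1.64e-05). The cause of these moves was not tested. Depth limits the 9 members other than Peg10, with 2 to 50 counts a sample.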

Other observations

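Genes derived, like Peg10 and Rtl1, from retrotransposons of the sushi-ichi family were listed after the fall of Peg10 had been seen. Of 10 such genes with a row, 3 had enough counts to be tested, and 2 of them, Peg10 and Rtl1, were lower. Over all genes tested, 19.3% were lower. Peg10 prompted the list, so Rtl1 is the only lower gene that it adds. The third, Rgag4, had 7, 15 and 16 counts in 393P_vector and 16, 21 and 24 counts in 393P_ZEB1 samples, with a log2 fold change of 0.90 (edgeR adjusted p = 0.0723). The other 7, among them Ldoc1 with 1 to 5 counts a sample, stayed below the filter. The list was chosen after its values were seen and carries no test.

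The tested genes nearest to the growth-control genes, 5 on each side, are given as counts, beside 37.6% of all genes called in either direction, and were not compared by a test. Of the 10 near Plagl1, 1 was higher and 7 were lower, with a median log2 fold change of -0.58. Of those near Igf2, 0 were higher and 5 were lower, with a median of -0.90 and a lowest value of -5.27, that of Syt8, a synaptotagmin gene named after its value was seen. Near Cdkn1c, 3 were higher and 3 lower, with a median of -0.09, and near Grb10, 1 was higher and 2 were lower, with a median of 0.13. Near Meg3 and near Dlk1, 0 were higher and 3 lower, near Mest 0 and 4, near Peg3 2 and 1, and near H19 0 and 5. The sets of Igf2, H19 and Cdkn1c share genes, as do those of Meg3 and Dlk1, and the set near Grb10 spans 8520 kb. The median of chromosome 10, where Plagl1 lies, was -0.3. Igf2 and Grb10 themselves did not pass the test.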
